A study of Mus musculus with 36 samples.

Results

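The genes described here are the cell adhesion genes of the integrin, cadherin, protocadherin, α/δ-catenin and claudin families, measured by polyA RNA sequencing in muscle stem cells (MuSCs, or satellite cells) of mice. They were picked by symbol alone, as every gene named Itga, Itgb, Cdh, Pcdh, Ctnna, Ctnnd or Cldn plus a number or letters. This gave 62 of the 11337 genes in the table. Among them were 15 integrin subunits, 8 cadherins, 2 catenins, 4 claudins, 7 non-clustered and 24 clustered protocadherins, and 2 genes that carry an integrin-like symbol without being subunits, Itgb1bp1 and Itgbl1. The mm10 annotation holds 151 symbols of this pattern, so most of the claudins (4 of 23 in the table) and cadherins (8 of 23) were not among the genes analysed here, nor was any of the 13 protocadherins of the α cluster.

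There were 36 libraries in 8 groups, each library made from the hindlimb MuSCs or recombined MuSCs of 1 male mouse of the C57BL6 background, which the sample records spell C56BL/6. The wheel cohort had 21 mice kept for 3 weeks with a running wheel. These were 5 old mice of 18 months with a free wheel, O(+Ex), 7 old mice with a locked wheel, O(-Ex), 3 young mice of 3 months with a free wheel, Y(+Ex), and 6 young mice with a locked wheel, Y(-Ex). Their MuSCs were sorted as VCAM+ cells without CD31, CD45, Sca1 or DAPI staining. The Ccnd1 cohort had 15 mice, all with Pax7_CreERT2 and R26R_YFP. They were 3 old mice with Ccnd1 +/+, O(WT), 5 young mice with Ccnd1 flox/flox, Y(KO), 4 young mice with Ccnd1 +/flox, Y(HET), and 3 young mice with Ccnd1 +/+, Y(WT). All 15 received tamoxifen 6 weeks before their cells were sorted as YFP+ and DAPI-. Recombination was thus limited to cells in which the Pax7 promoter drove the Cre, and the YFP gate used no surface marker against other cell types. Ccnd1 encodes cyclin D1, which drives the cell cycle through G1.

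Integrins are pairs of an α and a β subunit that bind laminin, collagen, fibronectin or vitronectin outside the cell and are coupled inside it to actin through talin, kindlin and focal adhesion kinase. Classical cadherins bind the same cadherin on the neighbouring cell and are tied to actin by catenins. Claudins form tight junctions, and protocadherins form a large group of cadherin-like proteins best studied in neurons, where the clustered ones give single cells an identity. A satellite cell lies between its muscle fibre and the basal lamina. Laminin-binding α7β1 integrin is on the side of the lamina, and M-cadherin (Cdh15) and N-cadherin (Cdh2) are on the side of the fibre. In mice β1 integrin is needed to keep these cells quiescent.

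The promoters of 3 members whose levels the results below turn on are printed here so that their sequences can be read beside the values, namely the claudin Cldn5, the integrin subunit Itgav and the protocadherin Pcdh18. Each runs from 250 bases before to 50 bases after the gene's start on the gene's own strand, from RefSeq on build GRCm38.p6, and capitals mark the GC box GGGCGG or its complement CCGCCC. The Cldn5 promoter lies at chr16:18776597-18776896 on the + strand, the Itgav promoter at chr2:83724147-83724446 on the + strand and the Pcdh18 promoter at chr3:49757267-49757566 on the - strand.
Cldn5: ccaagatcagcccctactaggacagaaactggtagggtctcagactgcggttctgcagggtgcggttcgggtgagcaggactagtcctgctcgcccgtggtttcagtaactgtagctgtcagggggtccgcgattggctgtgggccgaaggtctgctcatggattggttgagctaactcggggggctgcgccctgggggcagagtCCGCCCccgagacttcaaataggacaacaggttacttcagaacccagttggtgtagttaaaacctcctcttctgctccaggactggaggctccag
Itgav: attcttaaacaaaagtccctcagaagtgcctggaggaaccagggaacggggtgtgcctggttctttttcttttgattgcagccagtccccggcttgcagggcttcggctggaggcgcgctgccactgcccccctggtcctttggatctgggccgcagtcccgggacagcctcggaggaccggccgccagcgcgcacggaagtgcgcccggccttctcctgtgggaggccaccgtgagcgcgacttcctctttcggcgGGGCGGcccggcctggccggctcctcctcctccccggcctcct
Pcdh18: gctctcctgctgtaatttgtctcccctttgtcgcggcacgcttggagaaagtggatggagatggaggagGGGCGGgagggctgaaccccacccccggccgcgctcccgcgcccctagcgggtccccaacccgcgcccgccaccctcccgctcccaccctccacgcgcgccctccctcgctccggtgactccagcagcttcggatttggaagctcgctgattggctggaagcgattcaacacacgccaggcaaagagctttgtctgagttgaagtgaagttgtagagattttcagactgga
Each of the 3 held 1 GC box, and none held the myogenic E-box CAGCTG, the AP-1 site TGANTCA, the TEAD site CATTCC, the ETS core CCGGAA or the TATA box TATAAA on either strand. Promoters were found for 26 of the 62 members, 31 promoters in all because some genes have several. Neither Itga7 nor any clustered protocadherin was among the 26. The windows of Cldn12 overlap each other, as do those of Pcdh9, so the 31 are not all separate and a match can be counted more than once. A GC box was in 17 of these 31 (54.8%), against 35.7% of all 32851 promoters in the table, and the myogenic E-box was in 7 (22.6%), against 16.3% of all promoters. The Cdh15 promoter held 3 GC boxes, and the Itga5 promoter held 1 myogenic E-box and 2 GC boxes. The matches are letters in a window and carry no statement about binding.

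The libraries carried satellite cell markers throughout, with Pax7 at 14.2 to 32.5 RPKM and Vcam1 at 122 to 239.7 RPKM over the 36 libraries. RPKM are reads per kilobase of gene, scaled to the size of the library, so levels of different genes can be set side by side. Ccnd1 averaged 2.71 ± 0.495 RPKM in Y(KO) and 7.18 ± 0.723 RPKM in Y(HET), against 11.7 ± 1.40 RPKM in Y(WT) (SD, n = 5, 4 and 3). All 4 Y(HET) libraries held keratinocyte transcripts. Krt14 stood between 31.9 and 95.8 RPKM there, against at most 0.105 RPKM in every library of the other groups except O(WT) replicate 2, which had 2.92 RPKM. The log2 values were short of 6 directions of variation between libraries (a rank of 29, where 35 is possible), and 0 genes differed at an unadjusted p under 0.05 between Y(WT) and Y(-Ex) or between O(WT) and O(-Ex). The age effects of the cohorts are therefore not independent of each other. With Y(WT) merged into Y(-Ex) and O(WT) into O(-Ex), which leaves 6 groups, the residual rank was 24 where 30 is expected. The rank within each cohort was not computed. The fits per cohort may count more residual degrees of freedom than the table holds, and the p values may be too small. Read depth per library is not known, and in bulk RNA fewer cells of a type and less RNA per cell cannot be told apart.

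**Figure D1:**
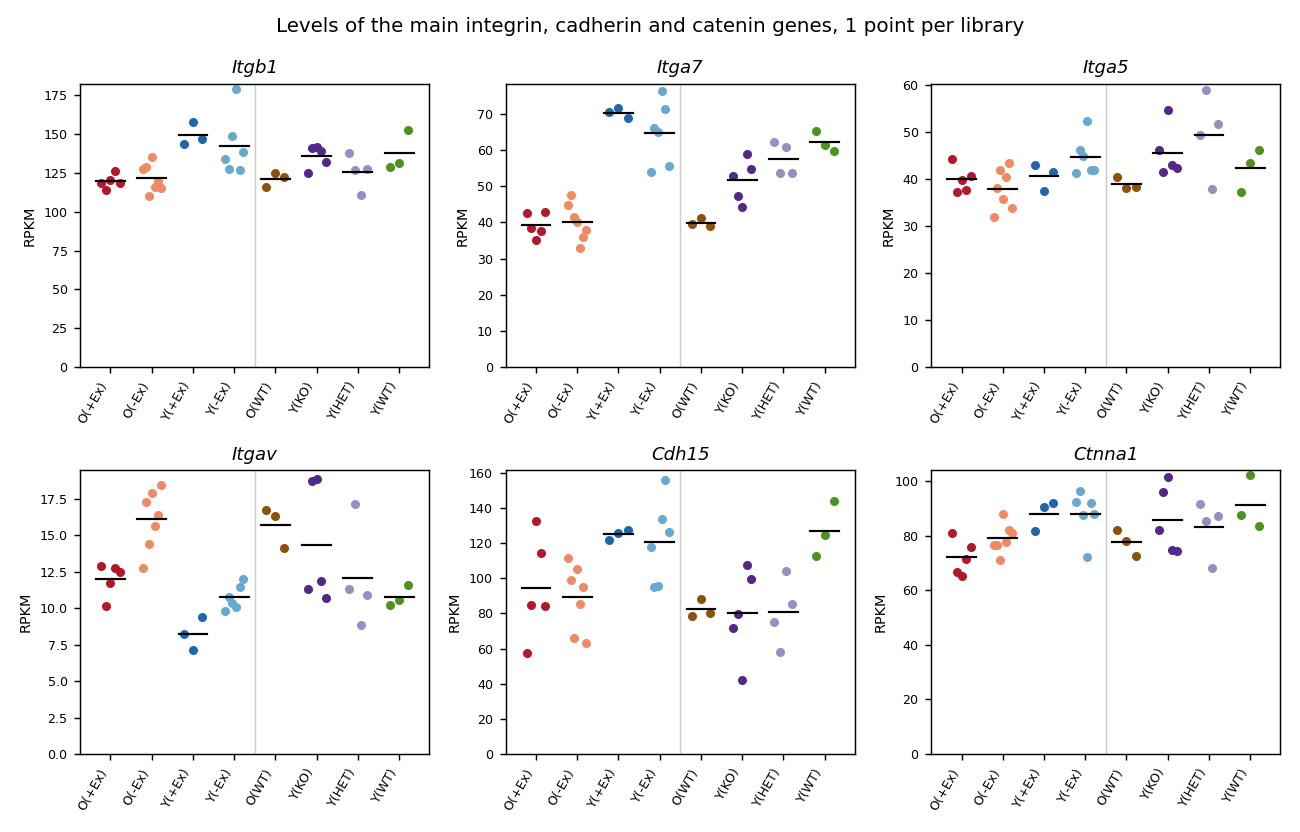
RPKM of Itgb1, Itga7, Itga5, Itgav, Cdh15 and Ctnna1 in each of the 36 libraries (points), by group along the horizontal axis, with the group mean as a bar. Itga7 is lower in every old group than in every young locked-wheel or Y(WT) library, and Itgav is higher in O(-Ex) and O(WT) than in Y(-Ex) and Y(WT).

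Most members were expressed at low levels. The mean over the 8 group means reached 10 RPKM for 11 members, lay between 5 and 10 RPKM for 6, between 1 and 5 RPKM for 35, and below 1 RPKM for 10. The median member stood at 1.71 RPKM, against 6.12 RPKM for all genes of the table. Itgb1, the common β partner of most α subunits, was the most abundant at a mean of 132 RPKM, followed by the satellite cell cadherin Cdh15 at 100.1 RPKM and Ctnna1, αE-catenin, at 83.0 RPKM. Next came the laminin receptor subunit Itga7 (53.2 RPKM), the fibronectin receptor subunit Itga5 (42.4 RPKM), T-cadherin Cdh13 (29.7 RPKM), Cldn5 (29.1 RPKM) and Pcdh18 (22.03 RPKM). The endothelial cadherin Cdh5, VE-cadherin, was at 14.6 RPKM and the vitronectin receptor subunits Itgb5 and Itgav were at 13.5 and 12.5 RPKM. Cdh1, E-cadherin of epithelia, was the lowest of the 62 at 0.496 RPKM. N-cadherin, Cdh2, averaged 1.41 RPKM and so stood far below M-cadherin in these cells.

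Summed by family, integrin subunits gave 250 RPKM on average in O(+Ex), 257 RPKM in O(-Ex), 305 RPKM in Y(+Ex) and 299 RPKM in Y(-Ex). The integrin sum was 256 RPKM in O(WT), 289 RPKM in Y(KO), 286 RPKM in Y(HET) and 289 RPKM in Y(WT). Cadherins summed to 149, 136, 180 and 178 RPKM in the 4 wheel groups in the same order, and to 128 RPKM in O(WT), 135 RPKM in Y(KO), 132 RPKM in Y(HET) and 185 RPKM in Y(WT). The 24 clustered protocadherins together made up 41.6 RPKM in O(+Ex), 39.0 RPKM in O(-Ex), 68.5 RPKM in Y(+Ex) and 55.6 RPKM in Y(-Ex), and 38.0 RPKM in O(WT), 44.1 RPKM in Y(KO), 42.0 RPKM in Y(HET) and 54.4 RPKM in Y(WT). No old library reached the lowest young locked-wheel library in that last sum, since the highest O(-Ex) value was 46.6 RPKM and the lowest Y(-Ex) value 51.6 RPKM. These sums are descriptions and were not tested.

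In the wheel cohort, O(-Ex) against Y(-Ex), 7 members rose and 22 fell of 62 (46.8%), where 38.3% of all genes were called (20.5% higher and 17.8% lower), by limma's moderated test with a Benjamini-Hochberg adjusted p under 0.05 over all genes. In the Ccnd1 cohort, O(WT) against Y(WT), 4 rose and 9 fell (21%), where 15.8% of all genes were called (8.03% higher and 7.76% lower). The median member changed by -0.24 (log2) in the wheel cohort and by -0.20 in the Ccnd1 cohort, against 0.007 and -0.0082 over all genes. The old and young values did not overlap for 8 members in the wheel cohort (12.9%, against 12.4% of all genes) and for 29 in the Ccnd1 cohort (46.8%, against 37% of all genes), where groups of 3 overlap less easily. Throughout, a log2 change is given with its standard error, and a mean with its SD over mice.

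**Figure D2:**
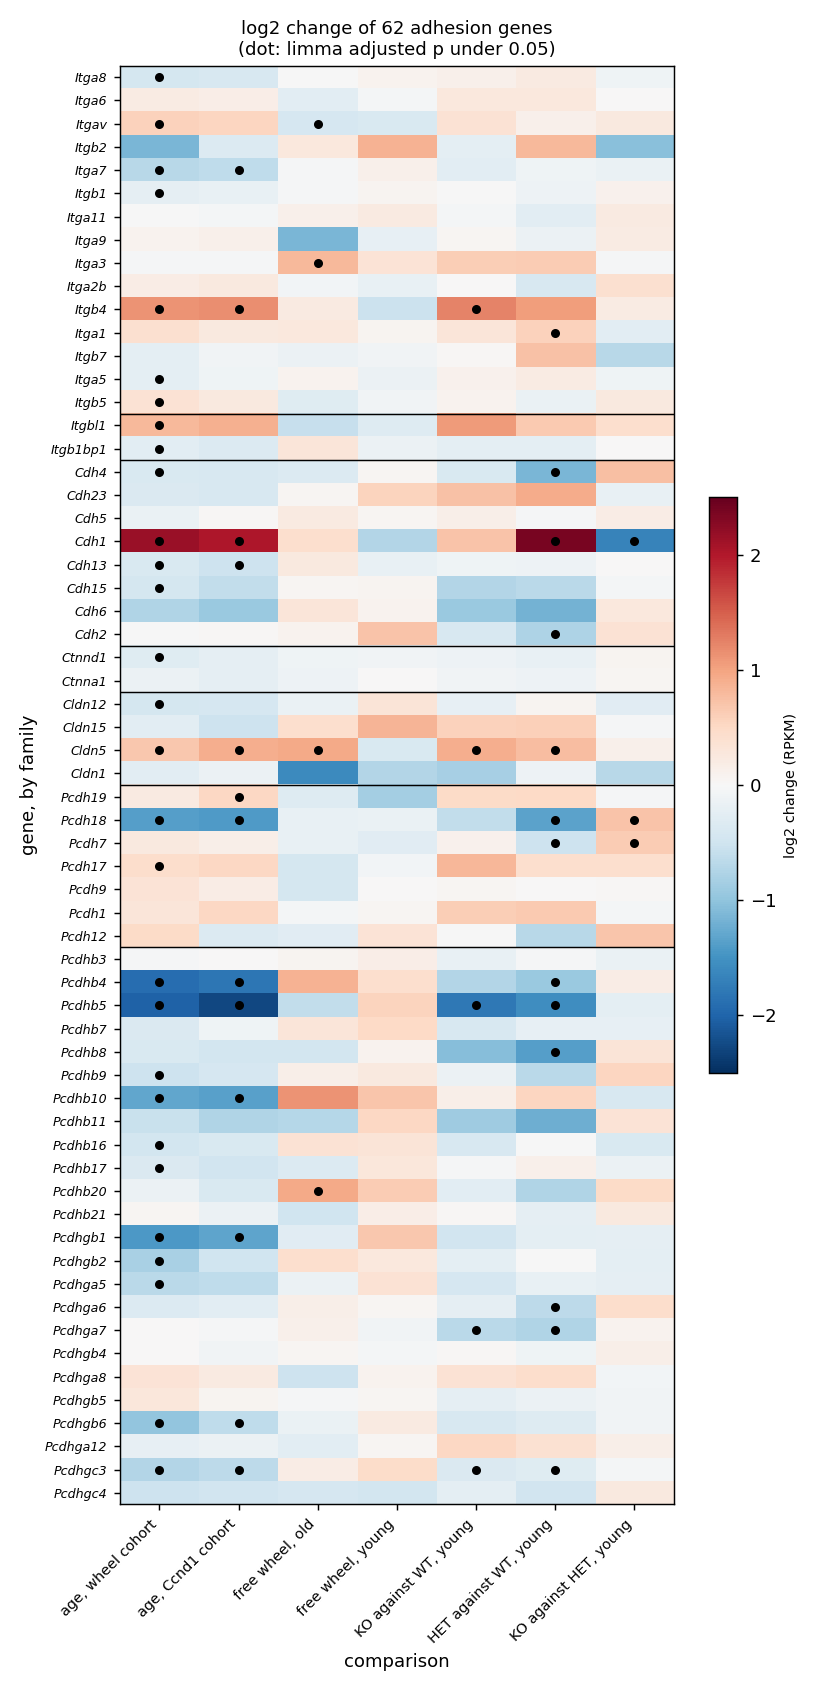
log2 change of each of the 62 members (rows, by family) in 7 comparisons (columns), red for higher and blue for lower, with a black dot where the limma adjusted p was under 0.05. The columns for age hold 29 and 13 dots, of which 11 and 6 are on blue cells of the clustered protocadherins, and the column for the free wheel in young mice holds none.

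Among the integrins, laminin-binding Itga7 fell with age in both cohorts. It had 32.8 to 47.6 RPKM with a median of 40.1 RPKM in O(-Ex), against 53.9 to 76.1 RPKM with a median of 65.6 RPKM in Y(-Ex), so no old library reached a young one. Itga7 fell 1.61-fold, a log2 change of -0.69 ± 0.089 (limma with Benjamini-Hochberg adjustment, adjusted p = 4.62e-06). In the Ccnd1 cohort 39.6, 41.1 and 39.0 RPKM in O(WT) stood against 65.1, 61.2 and 59.8 RPKM in Y(WT). Their ranges did not meet (log2 change -0.64 ± 0.11, adjusted p = 0.00229). Its β partner Itgb1 fell less, with 109.9 to 135 RPKM in O(-Ex), against 127 to 179 RPKM in Y(-Ex), ranges that overlapped (log2 change -0.22 ± 0.071, adjusted p = 0.0184). This fall was not called with only the 2 groups in the fit. In O(WT) Itgb1 had 116, 125 and 122 RPKM, against 129, 131 and 153 RPKM in Y(WT), which did not pass (log2 change -0.18 ± 0.10, adjusted p = 0.242). Itga5, the fibronectin receptor α subunit, fell in the wheel cohort (log2 change -0.24 ± 0.076, adjusted p = 0.015; 37.9 ± 4.29 RPKM in O(-Ex), against 44.8 ± 4.21 RPKM in Y(-Ex)) and did not pass in the Ccnd1 cohort (log2 change -0.11 ± 0.15, adjusted p = 0.631). Itga8, another RGD-binding subunit, which binds nephronectin, fell in the wheel cohort (log2 change -0.43 ± 0.15, adjusted p = 0.0258). Leaving out each library in turn ended this call in 4 of 13 omissions (lost without O(-Ex) replicate 1 or 4 or Y(-Ex) replicate 1 or 2 with an adjusted p of at most 0.068). The other laminin-binding subunits did not pass: Itga6 gave log2 change 0.20 ± 0.19, adjusted p = 0.427 and Itga3 gave log2 change -0.029 ± 0.20, adjusted p = 0.926. Itga9, which pairs with β1 and binds tenascin and VCAM1, gave log2 change 0.08 ± 0.39, adjusted p = 0.895.

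The subunits of the vitronectin receptor went the other way in old MuSCs of the wheel cohort. Itgav had 12.7 to 18.4 RPKM with a median of 16.4 RPKM in O(-Ex), against 9.78 to 12.0 RPKM with a median of 10.6 RPKM in Y(-Ex). Every old library lay above every young one, and the change passed (log2 change 0.58 ± 0.09, adjusted p = 4.06e-05). O(WT) gave 16.7, 16.3 and 14.1 RPKM, against 10.2, 10.5 and 11.6 RPKM in Y(WT), also without overlap, but this difference did not pass (log2 change 0.54 ± 0.24, adjusted p = 0.139). Itgb5, a β subunit that pairs with αv, averaged 16.1 ± 2.05 RPKM in O(-Ex), against 12.7 ± 2.50 RPKM in Y(-Ex). It rose slightly (log2 change 0.35 ± 0.13, adjusted p = 0.0356). Its call was lost without O(-Ex) replicate 2, 4 or 5 or Y(-Ex) replicate 1, 3 or 4 with an adjusted p of at most 0.0946, and it did not pass in the Ccnd1 cohort (log2 change 0.25 ± 0.11, adjusted p = 0.116).

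Itgb4, which pairs with α6 and anchors epithelial and Schwann cells to laminin, rose in both cohorts. It had 1.72 to 3.64 RPKM with a median of 2.32 RPKM in O(-Ex), against 0.622 to 1.59 RPKM with a median of 1.17 RPKM in Y(-Ex), and the groups did not overlap (log2 change 1.12 ± 0.24, adjusted p = 0.00107). O(WT) had 2.70, 2.21 and 2.38 RPKM, against 2.29, 0.712 and 0.765 RPKM in Y(WT), where replicate 1 of Y(WT) lay within the old range (log2 change 1.17 ± 0.36, adjusted p = 0.0421). Of 8 measured Schwann cell markers, 3 rose (37.5%) and 1 fell (12.5%) in the wheel cohort, where 20.5% of all genes rose and 17.8% fell. Their summed level was 183 to 206 RPKM in O(-Ex), against 188 to 283 RPKM in Y(-Ex). The summed keratinocyte markers were at 20.3 to 30.5 RPKM in O(-Ex), against 12.7 to 15.3 RPKM in Y(-Ex), and 5 of 14 rose (35.7%). The part of either list in the Itgb4 value was not tested. The Ccnd1 cohort's call was kept in 1 of 6 omissions, the one of Y(WT) replicate 1, and lost without O(WT) replicate 1, 2 or 3 or Y(WT) replicate 2 or 3 with an adjusted p of at most 0.152. Itgbl1, an integrin β-like protein with EGF repeats and no membrane span, rose in the wheel cohort (3.19 ± 1.11 RPKM in O(-Ex), against 1.78 ± 0.525 RPKM in Y(-Ex); log2 change 0.82 ± 0.28, adjusted p = 0.0237), a call lost without O(-Ex) replicate 1 or 2 or Y(-Ex) replicate 5 or 6 with an adjusted p of at most 0.0627. Itgb1bp1, which binds the cytoplasmic tail of β1 integrin, fell (log2 change -0.27 ± 0.10, adjusted p = 0.0449), but the call was kept in only 4 of 13 omissions (lost without O(-Ex) replicate 2, 3, 5 or 7 or Y(-Ex) replicate 1, 2, 3, 4 or 6 with an adjusted p of at most 0.102).

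Of the 8 cadherins, Cdh1 rose and Cdh13, Cdh4 and Cdh15 fell with age in the wheel cohort. Cdh13, a cadherin with a lipid anchor in place of a cytoplasmic tail, averaged 25.0 ± 3.24 RPKM in O(-Ex), against 32.5 ± 5.12 RPKM in Y(-Ex) (log2 change -0.38 ± 0.11, adjusted p = 0.00881) and fell in the Ccnd1 cohort too (log2 change -0.52 ± 0.12, adjusted p = 0.00972). R-cadherin, Cdh4, had 2.90 to 5.86 RPKM in O(-Ex), against 3.93 to 5.99 RPKM in Y(-Ex), which overlapped (log2 change -0.37 ± 0.12, adjusted p = 0.0212). Its call was lost without Y(-Ex) replicate 6 (adjusted p = 0.0528), and it did not pass in the Ccnd1 cohort (log2 change -0.40 ± 0.32, adjusted p = 0.41). Cdh15, the M-cadherin of satellite cells, had 63.2 to 111 RPKM with a median of 95.2 RPKM in O(-Ex), against 95.01 to 156 RPKM with a median of 122 RPKM in Y(-Ex). The ranges overlapped and the fall was close to the threshold (log2 change -0.44 ± 0.17, adjusted p = 0.045). It was kept in 5 of 13 omissions and lost without O(-Ex) replicate 3, 5, 6 or 7 or Y(-Ex) replicate 1, 4, 5 or 6 with an adjusted p of at most 0.109, and was also lost without trend and robustness. O(WT) had 78.6, 88.1 and 80.5 RPKM of Cdh15, against 113, 124 and 144 RPKM in Y(WT), without overlap and without passing (log2 change -0.62 ± 0.28, adjusted p = 0.138). Neither Cdh2 (log2 change -0.002 ± 0.28, adjusted p = 0.996) nor Cdh5 (log2 change -0.16 ± 0.19, adjusted p = 0.534) passed.

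Cdh1 had the largest fold of any member in the wheel cohort's age comparison and the lowest level of the 62. Its 7 values in O(-Ex) ran from 0.247 to 1.66 RPKM with a median of 0.436 RPKM, against 0.0554 to 0.388 RPKM with a median of 0.104 RPKM in Y(-Ex). The groups overlapped, since 3 old libraries lay below the highest young library and 3 lay above 1 RPKM (log2 change 2.15 ± 0.68, adjusted p = 0.0151). O(WT) gave 0.336, 0.715 and 0.793 RPKM, against 0.129, 0.128 and 0.172 RPKM in Y(WT). These values were fully apart (log2 change 2.02 ± 0.48, adjusted p = 0.013), and this call was lost without O(WT) replicate 3 (adjusted p = 0.0604), with only the 2 groups in the fit, and with all 36 libraries in 1 fit. Of the keratinocyte list 14 of 22 genes were in the table and none was at 0. In the wheel cohort 5 of the 14 rose (35.7%, where 20.5% of all genes rose), 1 fell and 8 were not called, with a median log2 change of 1.98. In the Ccnd1 cohort 3 rose (21.4%, where 8.03% of all genes rose) and 11 were not called. Their summed level was 20.3 to 30.5 RPKM in O(-Ex), against 12.7 to 15.3 RPKM in Y(-Ex), and 19.2 to 42.4 RPKM in O(WT), against 11.9 to 16.1 RPKM in Y(WT). Krt14 was low in both wheel groups but higher in the old one, at 0.0494 to 0.105 RPKM in O(-Ex), against 0.00832 to 0.0212 RPKM in Y(-Ex). The part of keratinocytes in the Cdh1 value was not tested. Without O(WT) replicate 2, the library with 2.92 RPKM of Krt14, the Cdh1 call of the Ccnd1 cohort remained.

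Ctnnd1, p120-catenin, which binds the inner side of cadherins and keeps them at the membrane, fell slightly (5.27 ± 0.652 RPKM in O(-Ex), against 6.46 ± 0.768 RPKM in Y(-Ex); log2 change -0.29 ± 0.091, adjusted p = 0.0142) and did not pass in the Ccnd1 cohort (log2 change -0.22 ± 0.10, adjusted p = 0.149). Ctnna1, which couples the cadherin complex to actin, had 70.9 to 88.1 RPKM in O(-Ex), against 72.1 to 96.3 RPKM in Y(-Ex) and did not pass (log2 change -0.15 ± 0.07, adjusted p = 0.0854).

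Cldn5, a tight junction protein best known from endothelium, rose with age. It had 19.8 to 43.0 RPKM with a median of 31.3 RPKM in O(-Ex), against 10.7 to 27.1 RPKM with a median of 19.0 RPKM in Y(-Ex), ranges that overlapped in part (log2 change 0.68 ± 0.19, adjusted p = 0.00851). O(WT) had 31.6, 30.4 and 32.9 RPKM, against 19.5, 19.0 and 13.1 RPKM in Y(WT). No library crossed over (log2 change 0.90 ± 0.20, adjusted p = 0.00982). Pecam1, which encodes the endothelial antigen CD31 that the wheel cohort's gate excluded, averaged 21.3 ± 4.20 RPKM in O(-Ex), against 14.5 ± 3.04 RPKM in Y(-Ex) (SD, n = 7 and 6). All 14 endothelial markers were in the table and above 0. Of these 3 rose in the wheel cohort (21.4%, where 20.5% of all genes rose) and 2 rose in the Ccnd1 cohort (14.3%, where 8.03% of all genes rose), none fell, with a median log2 change of -0.051 and 0.048. Their summed level was 123 to 196 RPKM in O(-Ex), against 118 to 178 RPKM in Y(-Ex), and 143 to 167 RPKM in O(WT), against 113 to 168 RPKM in Y(WT). Cdh5, the cadherin of the same cells, was not called in the wheel cohort, nor in the Ccnd1 cohort (log2 change 0.02 ± 0.14, adjusted p = 0.94). Whether endothelial RNA takes part in the Cldn5 value was not tested. Cldn12, the second most abundant claudin, fell in the wheel cohort (5.71 ± 0.932 RPKM in O(-Ex), against 7.78 ± 1.68 RPKM in Y(-Ex); log2 change -0.43 ± 0.13, adjusted p = 0.0142), and Cldn15 did not pass (log2 change -0.27 ± 0.22, adjusted p = 0.346).

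**Figure D3:**
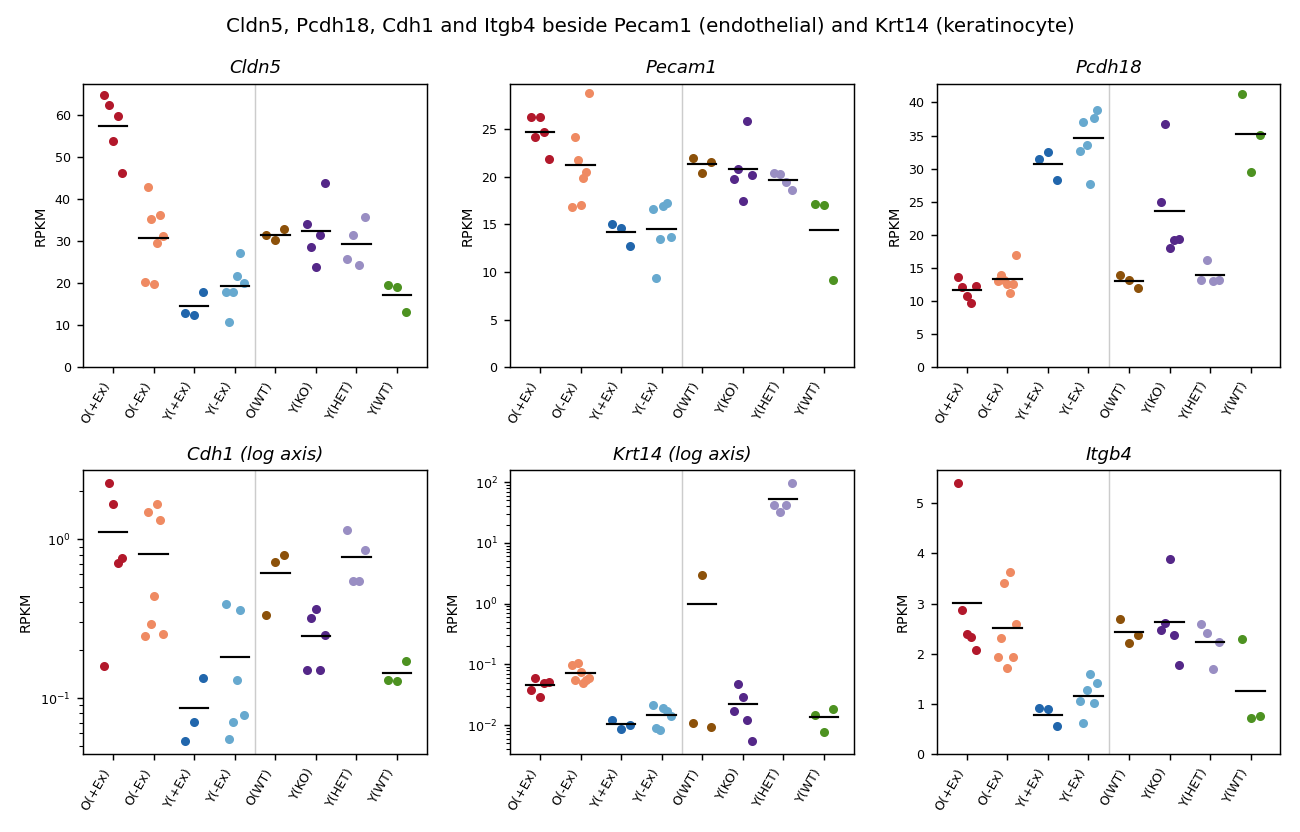
RPKM of Cldn5, Pecam1, Pcdh18, Cdh1, Krt14 and Itgb4 in each of the 36 libraries (points) by group, with the group mean as a bar and log axes for Cdh1 and Krt14. Cldn5 is highest in the 5 O(+Ex) libraries (46.4 to 64.8 RPKM), Pcdh18 is low in old and Y(HET) libraries, and Krt14 is above 30 RPKM in the Y(HET) libraries only.

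Among the 7 non-clustered protocadherins, Pcdh18 had the smallest adjusted p of all members in the wheel cohort. It had 11.2 to 16.9 RPKM with a median of 13.0 RPKM in O(-Ex), against 27.6 to 38.8 RPKM with a median of 35.3 RPKM in Y(-Ex). The highest old library was well below the lowest young one. Pcdh18 fell 2.59-fold in the wheel cohort (log2 change -1.37 ± 0.095, adjusted p = 7.31e-09) and 2.68-fold in the Ccnd1 cohort. There O(WT) had 13.9, 13.2 and 12.0 RPKM, against 41.3, 29.5 and 35.1 RPKM in Y(WT) (log2 change -1.42 ± 0.21, adjusted p = 0.00126). Both calls held in every omission of a library. Pax7 fell beside it, to 17.2 ± 1.72 RPKM in O(-Ex), against 26.4 ± 5.40 RPKM in Y(-Ex). Of the 10 satellite cell markers 1 rose (10%, where 20.5% of all genes rose) and 4 fell (40%, where 17.8% of all genes fell). The median log2 change of these markers was -0.042. Their part in the Pcdh18 value was not tested. Pcdh17 rose in the wheel cohort (3.76 ± 0.907 RPKM in O(-Ex), against 2.74 ± 0.343 RPKM in Y(-Ex); log2 change 0.43 ± 0.14, adjusted p = 0.0216), a call lost without O(-Ex) replicate 7 (adjusted p = 0.0511). Pcdh19 was called higher in the Ccnd1 cohort, at the edge of the threshold (log2 change 0.52 ± 0.17, adjusted p = 0.0499). It had 1.27, 1.28 and 1.52 RPKM in O(WT), against 0.916, 0.952 and 0.956 RPKM in Y(WT). Leaving out any 1 of the 6 libraries ended that call (adjusted p up to 0.173). The remaining 4, Pcdh1, Pcdh7, Pcdh9 and Pcdh12, did not pass with age.

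The clustered protocadherins fell with age or did not pass. In the wheel cohort 0 of 24 rose and 11 fell, or 45.8%, where 17.8% of all genes fell, with a median log2 change of -0.41. In the Ccnd1 cohort 0 rose and 6 fell, or 25%, where 7.76% of all genes fell, with a median of -0.44. The 6 were Pcdhb4, Pcdhb5, Pcdhb10, Pcdhgb1, Pcdhgb6 and Pcdhgc3, and each was also among the 11. Because the age effects of the cohorts are not independent, this overlap is no separate evidence. All 24 lie in neighbouring arrays on chromosome 18, the γ genes share their 3' exons and the β genes resemble each other in sequence, so reads may have been split between them and the single values are uncertain. Pcdhgc3, a C-type γ gene and with Pcdhb9 the most abundant of them, had 4.61 to 8.98 RPKM with a median of 5.06 RPKM in O(-Ex), against 8.26 to 11.1 RPKM with a median of 9.14 RPKM in Y(-Ex). Only O(-Ex) replicate 7 reached the young range (log2 change -0.74 ± 0.13, adjusted p = 9.67e-05). O(WT) had 5.84, 5.69 and 5.62 RPKM, against 9.52, 8.56 and 8.87 RPKM in Y(WT). The groups did not overlap (log2 change -0.65 ± 0.085, adjusted p = 0.000837).

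The steepest falls were in 2 genes of the β cluster. Pcdhb5 had 0.241 to 0.739 RPKM with a median of 0.616 RPKM in O(-Ex), against 1.05 to 3.73 RPKM with a median of 2.38 RPKM in Y(-Ex), a 4.07-fold fall without overlap (log2 change -2.03 ± 0.44, adjusted p = 0.00114). In O(WT) it had 0.517, 0.611 and 0.429 RPKM, against 1.51, 2.45 and 4.09 RPKM in Y(WT) (log2 change -2.27 ± 0.39, adjusted p = 0.00246). Pcdhb4 had 0.160 to 0.934 RPKM with a median of 0.702 RPKM in O(-Ex), against 1.12 to 2.67 RPKM with a median of 2.03 RPKM in Y(-Ex). Their ranges did not meet (log2 change -1.91 ± 0.37, adjusted p = 0.000346). In O(WT) Pcdhb4 had 0.459, 0.608 and 0.425 RPKM, against 1.27, 1.72 and 2.29 RPKM in Y(WT) (log2 change -1.80 ± 0.25, adjusted p = 0.000994). In the γ cluster Pcdhgb1 had 0.301 to 0.663 RPKM in O(-Ex), against 1.06 to 1.68 RPKM in Y(-Ex) (log2 change -1.44 ± 0.26, adjusted p = 0.000203). Pcdhgb6 had 1.06 to 2.39 RPKM in O(-Ex), against 2.57 to 4.32 RPKM in Y(-Ex) (log2 change -0.98 ± 0.21, adjusted p = 0.000806). Neither pair of ranges overlapped. Pcdhgb1 had a mean under 1 RPKM in both cohorts and was not tested under a filter at that level. The other called falls of the wheel cohort were Pcdhb9 (log2 change -0.52), Pcdhb16 (-0.45), Pcdhb17 (-0.36), Pcdhga5 (-0.67), Pcdhb10 (-1.30) and Pcdhgb2 (-0.81). Pcdhb9 and Pcdhb16 kept the call in all 13 omissions of a library. Pcdhb17 was lost without Y(-Ex) replicate 3 with an adjusted p of at most 0.0503. Pcdhga5 was lost without O(-Ex) replicate 5 or 7 or Y(-Ex) replicate 2 or 4 with an adjusted p of at most 0.0638. Pcdhb10 was lost without O(-Ex) replicate 5 or 7 or Y(-Ex) replicate 2, 3 or 4 with an adjusted p of at most 0.0709, and in the Ccnd1 cohort lost without O(WT) replicate 1 or 3 or Y(WT) replicate 1 or 2 with an adjusted p of at most 0.129. Pcdhgb2 was kept in 4 of 13 omissions and lost without O(-Ex) replicate 1, 2, 4, 5 or 7 or Y(-Ex) replicate 2, 4, 5 or 6 with an adjusted p of at most 0.0879.

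**Figure D4:**
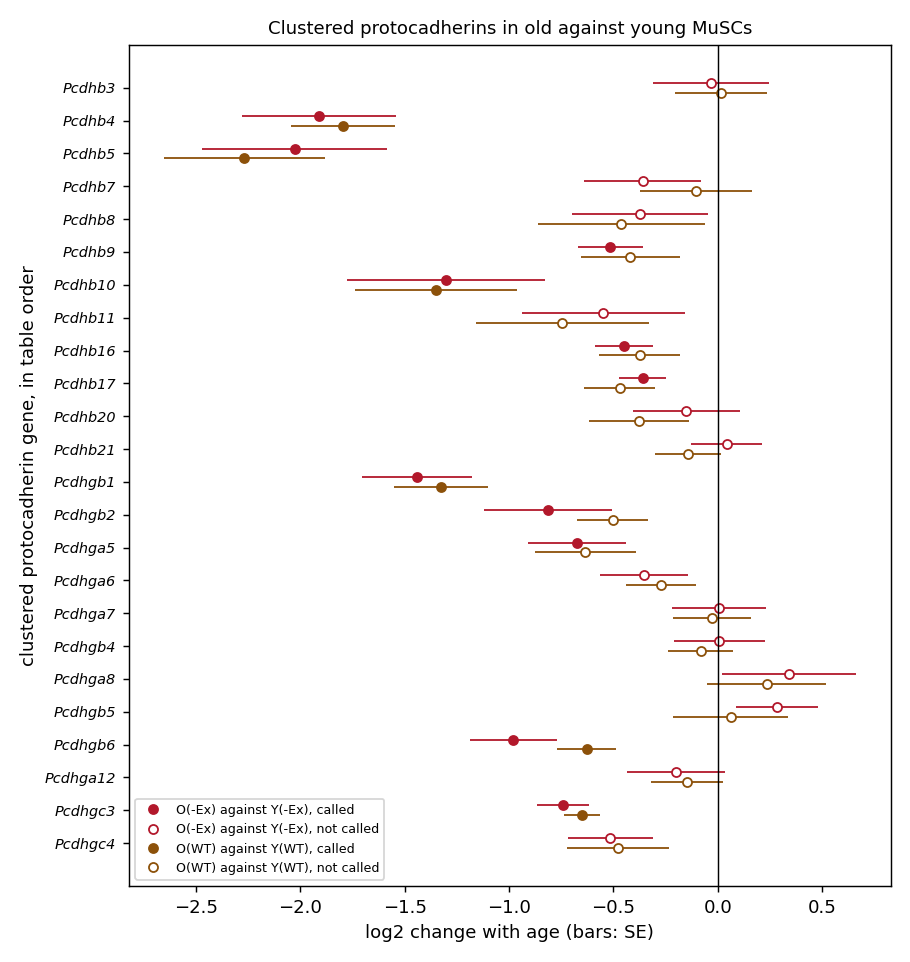
log2 change with age (horizontal axis, bars are SE) of the 24 clustered protocadherins, in O(-Ex) against Y(-Ex) (red) and O(WT) against Y(WT) (brown), filled where the limma adjusted p was under 0.05. Filled points, 11 red and 6 brown, all lie left of 0, and the largest falls are those of Pcdhb5 and Pcdhb4.

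Of the adaptors and kinases that couple integrins to actin, 29 of 32 listed genes were in the table. In the wheel cohort 12 fell and 0 rose (median log2 change -0.18), where 17.8% of all genes fell and 20.5% rose. Actn1, α-actinin, averaged 4.34 RPKM in O(-Ex) and 7.27 RPKM in Y(-Ex), log2 change -0.75 ± 0.12, adjusted p = 5.98e-05, and Ptk2, focal adhesion kinase, averaged 8.22 RPKM in O(-Ex) and 12.1 RPKM in Y(-Ex), log2 change -0.55 ± 0.093, adjusted p = 8.92e-05. Among 22 measured integrin ligands, 3 rose and 7 fell (median -0.18): Fbln5 and Lama3 had the lowest p among those that rose (log2 change 1.00 and 0.53), and Col6a1 and Lamb1 among those that fell (-0.92 and -1.25). Of 20 cadherin and junction partners 3 rose and 8 fell (median -0.098), with Pkp4 higher (0.44) and Jup, plakoglobin, and Tjp1, ZO-1, lower (-0.51 and -0.54). In the Ccnd1 cohort, where 8.03% of all genes rose and 7.76% fell, the adaptors held 0 rises and 2 falls (6.9%), the ligands 1 rise and 3 falls (13.6%) and the junction partners 0 rises and 3 falls (15%). Of the mature myofibre markers (8 of 12 listed were in the table), 2 fell in the wheel cohort with a median log2 change of -1.17, and their summed level was 41.6 to 172 RPKM in O(-Ex), against 117 to 664 RPKM in Y(-Ex), and their part in these falls was not tested.

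The free wheel changed few members in old mice. O(+Ex) against O(-Ex) gave 3 rises and 1 fall of 62 (6.45%), where 7.39% of all genes were called (4.09% higher and 3.3% lower). Cldn5 was the clearest: 64.8, 62.4, 53.9, 59.9 and 46.4 RPKM in O(+Ex) stood against 19.8 to 43.0 RPKM with a median of 31.3 RPKM in O(-Ex). Every free-wheel library lay above every locked-wheel one, which held for no other member (1 of 62, 1.61%, against 3.94% of all genes). Cldn5 rose 1.92-fold, a log2 change of 0.94 ± 0.20 (limma with Benjamini-Hochberg adjustment, adjusted p = 0.01). In young mice Cldn5 had 13.0, 12.5 and 17.9 RPKM in Y(+Ex), against 10.7 to 27.1 RPKM in Y(-Ex), and did not pass (log2 change -0.38 ± 0.24, adjusted p = 0.478). The difference between the wheel effects in old and young mice was log2 change 1.32 ± 0.32, adjusted p = 0.307 for Cldn5, so the effects were not shown to differ. Of the 14 endothelial markers 3 rose in old mice (21.4%, where 4.09% of all genes rose), 11 were not called and 5 had a negative log2 change, and their summed level was 148 to 234 RPKM in O(+Ex), against 123 to 196 RPKM in O(-Ex). Of the 3 that rose, Cd93 (log2 change 0.82 ± 0.16, adjusted p = 0.00492) and Egfl7 (log2 change 0.62 ± 0.16, adjusted p = 0.0234) had the lowest p. Pecam1 averaged 24.6 ± 1.82 RPKM in O(+Ex), against 21.3 ± 4.20 RPKM in O(-Ex). Cdh5 averaged 16.5 ± 6.18 RPKM in O(+Ex), against 13.4 ± 2.58 RPKM in O(-Ex) without passing (log2 change 0.23 ± 0.20, adjusted p = 0.519). The part of endothelial RNA in the Cldn5 value was not tested.

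Itgav fell with the wheel in old mice. It had 12.9, 10.2, 11.7, 12.8 and 12.5 RPKM in O(+Ex), against 12.7 to 18.4 RPKM with a median of 16.4 RPKM in O(-Ex), where 2 of the 5 free-wheel libraries lay just above the lowest locked-wheel one (log2 change -0.42 ± 0.095, adjusted p = 0.0127). The call held in all 12 omissions of a library but not with all 36 libraries in 1 fit. In young mice all 3 Y(+Ex) libraries, 8.24, 7.11 and 9.39 RPKM, lay below the 9.78 to 12.0 RPKM of Y(-Ex), and this did not pass (log2 change -0.39 ± 0.11, adjusted p = 0.0972). Itgav was the only member called higher in O(-Ex) than in Y(-Ex) and lower in O(+Ex) than in O(-Ex), and both comparisons share the 7 O(-Ex) mice. Itgb5 gave log2 change -0.30 ± 0.14, adjusted p = 0.184 for the wheel in old mice and did not pass.

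Itga3, a laminin-binding subunit, rose with the wheel in old mice, with 2.63, 2.55, 1.41, 1.74 and 1.72 RPKM in O(+Ex), against 0.721 to 1.53 RPKM with a median of 1.07 RPKM in O(-Ex) (log2 change 0.80 ± 0.21, adjusted p = 0.0249). Its lowest free-wheel library overlapped the locked-wheel range, and the call was lost without O(+Ex) replicate 1 or 2 with an adjusted p of at most 0.0746. Pcdhb20 rose too (2.67 ± 0.920 RPKM in O(+Ex), against 1.44 ± 0.623 RPKM in O(-Ex); log2 change 0.94 ± 0.27, adjusted p = 0.0384), but kept its call in 5 of 12 omissions (lost without O(+Ex) replicate 1, 2, 3 or 5 or O(-Ex) replicate 3, 5 or 7 with an adjusted p of at most 0.115). The integrins of the lamina side did not pass, with a log2 change of -0.024 for Itga7, -0.025 for Itgb1 and 0.08 for Itga5. Neither did Cdh15 (log2 change 0.055 ± 0.18, adjusted p = 0.89) or Ctnna1 (log2 change -0.14 ± 0.073, adjusted p = 0.274). Nor did Pcdh18 and Pcdhgc3 pass, at 11.7 ± 1.49 RPKM in O(+Ex), against 13.4 ± 1.78 RPKM in O(-Ex) and 6.35 ± 0.894 RPKM in O(+Ex), against 5.70 ± 1.54 RPKM in O(-Ex). All 7 non-clustered protocadherins had a negative log2 change (median -0.27), none of them called, where 5828 of all 11337 genes had a negative one. The 7 were measured in the same mice, so their signs are not separate observations.

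Around them, 2 of 29 adaptors rose with the wheel in old mice (6.9%), where 4.09% of all genes rose and 3.3% fell. They were Lims2 (20.3 RPKM in O(+Ex) and 13.2 RPKM in O(-Ex), log2 change 0.62 ± 0.097, adjusted p = 0.00154) and Sharpin, an inhibitor of integrin activation (7.79 RPKM in O(+Ex) and 6.22 RPKM in O(-Ex), log2 change 0.32 ± 0.089, adjusted p = 0.0319). Among 22 ligands 3 rose (13.6%) and 1 fell (4.55%), with the basement membrane collagens Col4a2 and Col4a1 higher by 0.57 and 0.40 on the log2 scale and Lama3 changed by -0.63. Of the 20 junction partners 1 rose and 1 fell (5% each), near the shares of all genes. F11r, a junctional adhesion molecule, rose (log2 change 0.50) and Ppl, periplakin, fell (-0.61).

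In young mice the free wheel changed no member by limma's adjusted p, where 1.12% of all genes were called (0.406% higher and 0.714% lower), and 5 members had an unadjusted p under 0.05. The 3 with the lowest p, none of them passing, were Itgav, Pcdh19 and Cldn15. Pcdh19 had 0.629, 0.681 and 0.478 RPKM in Y(+Ex), against 0.890 to 1.32 RPKM in Y(-Ex). These values were fully apart (log2 change -0.85 ± 0.26, adjusted p = 0.104). Cldn15, a claudin that forms cation pores in the gut, had 3.46, 4.08 and 2.59 RPKM in Y(+Ex), against 0.915 to 2.80 RPKM in Y(-Ex) (log2 change 0.86 ± 0.28, adjusted p = 0.118). The groups did not overlap for 6 members (9.68%, against 9.55% of all genes). All 12 clustered β protocadherins had a positive log2 change (median 0.37), none of them called, where 5676 of all 11337 genes had a positive one. These neighbouring genes resemble each other in sequence and were measured in the same mice, so their signs are not separate observations. Lama3, a ligand gene, was called lower in young mice as well (2.65 RPKM in Y(+Ex) and 4.59 RPKM in Y(-Ex), log2 change -0.77 ± 0.15, adjusted p = 0.016), as was the nectin Nectin3 (6.09 RPKM in Y(+Ex) and 8.49 RPKM in Y(-Ex), log2 change -0.47 ± 0.12, adjusted p = 0.048). No member's wheel effect differed between old and young mice by limma's adjusted p, where 0.00882% of all genes were called and 7 members had an unadjusted p under 0.05. The lowest p belonged to Cldn5, followed by Pcdhb17 (log2 change -0.63 ± 0.19, adjusted p = 0.429) and Itgb1bp1 (log2 change 0.45 ± 0.17, adjusted p = 0.519).

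Loss of Ccnd1 changed 5 members, as 2 rose and 3 fell in Y(KO) against Y(WT) (8.06%, where 6.99% of all genes were called, 5.05% higher and 1.94% lower). The number of members called was 1 without Y(WT) replicate 2 or 3, 3 without Y(KO) replicate 1 or 3, 8 without Y(WT) replicate 1 and 9 without Y(KO) replicate 2. Cldn5 rose, with 34.1, 28.7, 23.8, 31.5 and 43.8 RPKM in Y(KO), against 19.5, 19.0 and 13.1 RPKM in Y(WT). No library crossed over (log2 change 0.91 ± 0.18, adjusted p = 0.0132). Its call was lost without Y(WT) replicate 3 (adjusted p = 0.064). None of the 14 endothelial markers was called by limma's adjusted p (3 had an unadjusted p under 0.05), and their sum was 136 to 176 RPKM in Y(KO), against 113 to 168 RPKM in Y(WT). Of these 14 markers 8 had a positive and 6 a negative log2 change, with a median of 0.013. Pecam1, 1 of those with a higher mean, averaged 20.8 ± 3.07 RPKM in Y(KO), against 14.4 ± 4.59 RPKM in Y(WT) (SD, n = 5 and 3). The part of Pecam1 or the list in the Cldn5 value was not tested. Itgb4 rose as well, with 2.46, 2.61, 3.89, 2.37 and 1.78 RPKM in Y(KO), against 2.29, 0.712 and 0.765 RPKM in Y(WT), which overlapped through Y(WT) replicate 1 (log2 change 1.24 ± 0.32, adjusted p = 0.0377). That call was kept in 3 of 8 omissions and lost without Y(KO) replicate 1, 3 or 4 or Y(WT) replicate 2 or 3 with an adjusted p of at most 0.162.

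The falls in Y(KO) were all in clustered protocadherins. Pcdhb5 had 0.431, 1.21, 0.588, 0.708 and 0.871 RPKM in Y(KO), against 1.51, 2.45 and 4.09 RPKM in Y(WT). The groups did not overlap (log2 change -1.79 ± 0.35, adjusted p = 0.0117), a call lost without Y(WT) replicate 2 or 3 (adjusted p up to 0.06). Pcdhgc3 had 6.93, 7.61, 6.92, 6.70 and 7.01 RPKM in Y(KO), against 9.52, 8.56 and 8.87 RPKM in Y(WT). Their ranges did not meet (log2 change -0.35 ± 0.076, adjusted p = 0.018), and the call was lost without any 1 of the Y(WT) libraries (adjusted p up to 0.06). Pcdhga7 had 0.842, 1.01, 0.882, 0.976 and 0.858 RPKM in Y(KO), against 1.25, 1.49 and 1.64 RPKM in Y(WT), with every KO library below every WT one (log2 change -0.67 ± 0.17, adjusted p = 0.0315; kept in 3 of 8 omissions, lost without Y(KO) replicate 1, 3 or 5 or Y(WT) replicate 2 or 3 with an adjusted p of at most 0.111). The groups did not overlap for 16 of the 62 members (25.8%, against 17.8% of all genes). Itga3 did not pass, with 1.91, 1.44, 1.86, 1.77 and 1.76 RPKM in Y(KO), against 1.10, 1.01 and 1.31 RPKM in Y(WT) (log2 change 0.62 ± 0.18, adjusted p = 0.0526). Neither did Pcdh18, with 25.0, 36.7, 18.0, 19.2 and 19.4 RPKM in Y(KO), against 41.3, 29.5 and 35.1 RPKM in Y(WT) (log2 change -0.62 ± 0.19, adjusted p = 0.0633).

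Cdh15 had 71.5, 79.7, 42.3, 108 and 99.4 RPKM in Y(KO), all below the 113, 124 and 144 RPKM of Y(WT), and did not pass (log2 change -0.73 ± 0.25, adjusted p = 0.0845). Itga7 had 52.8, 47.3, 44.3, 58.9 and 54.7 RPKM in Y(KO), against 65.1, 61.2 and 59.8 RPKM in Y(WT), without overlap and without passing (log2 change -0.27 ± 0.096, adjusted p = 0.0928). Itgb1 (log2 change -0.018 ± 0.092, adjusted p = 0.924), Itga5 (log2 change 0.10 ± 0.13, adjusted p = 0.648), Itgav (log2 change 0.36 ± 0.22, adjusted p = 0.31) and Ctnna1 (log2 change -0.093 ± 0.13, adjusted p = 0.681) did not pass either. Of the adhesion partners only Kank2, a talin-binding adaptor, was called, lower in Y(KO) (3.31 RPKM in Y(KO) and 5.26 RPKM in Y(WT), log2 change -0.67 ± 0.17, adjusted p = 0.0349).

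In the heterozygotes, Y(HET) against Y(WT), 3 members rose and 10 fell (21%, where 5.39% of all genes were called, 1.98% higher and 3.4% lower), and the groups did not overlap for 23 members (37.1%, against 21.2% of all genes). The number of members called in the heterozygotes was 1 without Y(WT) replicate 2, 2 without Y(HET) replicate 4, 3 without Y(WT) replicate 3 or Y(HET) replicate 2, and 5 without Y(HET) replicate 1, so the count of 13 rests on single libraries. Scaling the libraries by the median of ratios gave 4 rises and 5 falls in place of 3 and 10. These libraries carry the keratinocyte transcripts described above: 11 of 14 listed markers rose, none was at 0, and their sum was 106 to 248 RPKM in Y(HET), against 11.9 to 16.1 RPKM in Y(WT). Cdh1, the epithelial cadherin, rose, with 1.14, 0.544, 0.550 and 0.858 RPKM in Y(HET), against 0.129, 0.128 and 0.172 RPKM in Y(WT). These values were fully apart (log2 change 2.37 ± 0.45, adjusted p = 0.0127). It was the only cadherin that rose, and its call was lost without Y(WT) replicate 2 (adjusted p = 0.0576). Since keratins stood high in all 4 Y(HET) libraries, heterozygosity and keratinocyte RNA cannot be told apart for it. The epithelial integrin subunit Itgb4 had 2.59, 2.42, 1.70 and 2.23 RPKM in Y(HET), against 2.29, 0.712 and 0.765 RPKM in Y(WT), and did not pass (log2 change 1.04 ± 0.34, adjusted p = 0.0867). Cldn1, the claudin of the epidermal barrier, did not pass (1.80 ± 0.501 RPKM in Y(HET), against 1.92 ± 0.201 RPKM in Y(WT); log2 change -0.13 ± 0.26, adjusted p = 0.797). Cldn5 rose, with 25.7, 31.4, 24.4 and 35.7 RPKM in Y(HET), against 19.5, 19.0 and 13.1 RPKM in Y(WT). No library crossed over (log2 change 0.77 ± 0.19, adjusted p = 0.0343; kept in 2 of 7 omissions, lost without Y(HET) replicate 1, 2 or 4 or Y(WT) replicate 2 or 3 with an adjusted p of at most 0.109). No endothelial marker of 14 was called by limma's adjusted p (2 had an unadjusted p under 0.05), and their sum was 139.8 to 149 RPKM in Y(HET), against 113 to 168 RPKM in Y(WT). The collagen receptor subunit Itga1 rose too, with 5.33, 5.38, 5.80 and 6.16 RPKM in Y(HET), against 4.18, 3.23 and 4.04 RPKM in Y(WT) (log2 change 0.58 ± 0.15, adjusted p = 0.0418; kept in 1 of 7 omissions, lost without Y(HET) replicate 1, 2, 3 or 4 or Y(WT) replicate 2 or 3 with an adjusted p of at most 0.188).

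Pcdh18 fell most firmly in the heterozygotes. It had 13.2, 16.3, 13.0 and 13.1 RPKM in Y(HET), against 41.3, 29.5 and 35.1 RPKM in Y(WT), so the lowest WT library was well above every HET one (log2 change -1.34 ± 0.20, adjusted p = 0.00495), and the call held in all 7 omissions. Pax7 fell to 17.9 ± 1.97 RPKM in Y(HET), against 25.2 ± 3.67 RPKM in Y(WT). It was 1 of 3 satellite cell markers of 10 that fell (30%, where 3.4% of all genes fell). Of the 10 markers 9 had a negative log2 change, with a median of -0.23. Their part in the Pcdh18 value was not tested. Pcdh7 had 3.23, 4.03, 3.38 and 3.31 RPKM in Y(HET), against 5.23, 4.86 and 4.82 RPKM in Y(WT). The groups did not overlap (log2 change -0.52 ± 0.13, adjusted p = 0.0365). Of the clustered genes, Pcdhb5 (log2 change -1.55 ± 0.36, adjusted p = 0.0287), Pcdhb4 (log2 change -0.93 ± 0.23, adjusted p = 0.0389), Pcdhga7 (log2 change -0.75 ± 0.17, adjusted p = 0.0285) and Pcdhga6 (log2 change -0.65 ± 0.16, adjusted p = 0.0317) fell, each with every Y(HET) library below every Y(WT) one. Pcdhgc3 (-0.31), Cdh2 (-0.77), Cdh4 (-1.15) and Pcdhb8 (-1.38) were also called lower on the log2 scale. Cdh4 had 2.14, 2.58, 2.15 and 2.62 RPKM in Y(HET), against 4.73, 4.43 and 6.80 RPKM in Y(WT). Cdh2 had 0.835, 0.646, 0.860 and 0.794 RPKM in Y(HET), against 1.21, 1.36 and 1.41 RPKM in Y(WT). Apart from Pcdh18 each of these 10 falls lost its call without Y(WT) replicate 2, Y(WT) replicate 3 or Y(HET) replicate 4, and none was kept in more than 3 of the 7 omissions (adjusted p up to 0.217, for Pcdhb8). Of the other libraries, Y(HET) replicate 2 ended the call of all but Pcdh7 and Y(HET) replicate 1 that of all but Pcdhb4 and Pcdhga6. Y(WT) replicate 1 ended that of Cdh2, Cdh4, Pcdh7, Pcdhga6 and Pcdhgc3, and Y(HET) replicate 3 that of Cdh4, Pcdh7 and Pcdhb8. Of the adhesion partners, Marveld1, which has a MARVEL membrane domain, rose (6.10 RPKM in Y(HET) and 3.45 RPKM in Y(WT), log2 change 0.83 ± 0.21, adjusted p = 0.0392) and the adaptor Parva fell (14.2 RPKM in Y(HET) and 18.1 RPKM in Y(WT), log2 change -0.34 ± 0.094, adjusted p = 0.0465).

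Between the genotypes that carry a floxed allele, Y(KO) against Y(HET), 2 members rose and 1 fell (4.84%, where 6.04% of all genes were called, 5.15% higher and 0.891% lower). The number called was 1 without Y(HET) replicate 1 or 4, and scaling by the median of ratios gave 1 rise and 1 fall. Pcdh7 had 4.38, 5.93, 5.35, 5.77 and 5.53 RPKM in Y(KO), against 3.23, 4.03, 3.38 and 3.31 RPKM in Y(HET). Their ranges did not meet (log2 change 0.63 ± 0.11, adjusted p = 0.00632), and the call held in all 9 omissions. Pcdh18 had 25.0, 36.7, 18.0, 19.2 and 19.4 RPKM in Y(KO), against 13.2, 16.3, 13.0 and 13.1 RPKM in Y(HET). These values were fully apart (log2 change 0.72 ± 0.18, adjusted p = 0.0284), but the call was lost without Y(KO) replicate 1 or Y(HET) replicate 1, 3 or 4 (adjusted p up to 0.0866), with only the 2 groups in the fit, and with median-of-ratios scaling. Its means were 23.7 ± 7.78 RPKM in Y(KO), 13.9 ± 1.57 RPKM in Y(HET) and 35.3 ± 5.86 RPKM in Y(WT). Cdh1 fell, with 0.151, 0.319, 0.365, 0.150 and 0.249 RPKM in Y(KO), against 1.14, 0.544, 0.550 and 0.858 RPKM in Y(HET) (log2 change -1.67 ± 0.40, adjusted p = 0.0248), where 11 of the 14 keratinocyte markers fell as well. This call was lost without Y(KO) replicate 4 or Y(HET) replicate 1 or 4 (adjusted p up to 0.0807), and with all 36 libraries in 1 fit. The groups did not overlap for 5 members (8.06%, against 10.1% of all genes). Of the adhesion partners, vitronectin, Vtn (96.9 RPKM in Y(KO) and 73.4 RPKM in Y(HET), log2 change 0.40 ± 0.096, adjusted p = 0.0259), and Nectin3 (10.2 RPKM in Y(KO) and 7.33 RPKM in Y(HET), log2 change 0.47 ± 0.10, adjusted p = 0.02) rose.

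Across the 8 comparisons 38 of the 62 members were called at least once, 16 in at least 2, and 24 in none. These counts were not made for all genes, of which 38.3% were called with age in the wheel cohort alone. They are therefore no trait of the members. Cldn5 was called in 5, always higher, and Cdh1, Pcdh18, Pcdhb5 and Pcdhgc3 in 4 each. The age effect of the Ccnd1 cohort and the KO and HET effects share the Y(WT) mice, so their values are only set side by side. For Cldn5 the log2 change was 0.90 in O(WT), 0.91 in Y(KO) and 0.77 in Y(HET), each against Y(WT). The same 3 values were -1.42, -0.62 and -1.34 for Pcdh18, -2.27, -1.79 and -1.55 for Pcdhb5, and -0.64, -0.27 and -0.11 for Itga7. The Y(WT) value of Cldn5 ran from 13.1 to 19.5 RPKM and that of Pcdhb5 from 1.51 to 4.09 RPKM, and these 3 mice set the level against which each of these changes was measured.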

How the data were processed

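Per the labels' protocols, polyA RNA of sorted hindlimb MuSCs went through SMARTer cDNA synthesis, PCR and paired-end sequencing. Per the submitters' processing notes, the authors used Trim Galore, STAR and featureCounts (Subread) with mm10. The sources used here name neither versions nor the strand setting. The authors deposited RPKM for 11337 genes, in which 6 directions of variation between libraries are missing, and the step behind this is not recorded in the labels. limma may count those directions as residual degrees of freedom in the fits per cohort, for which the rank was not computed. RPKM cannot be tested as counts. log2 RPKM, without a pseudocount, were therefore tested with limma 3.58.1 (R 4.3.3, statmod 1.5.0, trend and robust), in 1 fit of 4 groups per cohort, with Benjamini-Hochberg adjustment over all genes and a threshold of 0.05. Every p in the text is limma's. Figures were drawn with matplotlib 3.10.9.

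The members and gene lists were chosen with earlier results of these data known. Named members are a fixed list of integrins, cadherins and catenins, and up to 6 called per direction and comparison by lowest p, or the 3 of lowest p where none was called; of each list of other adhesion genes, up to 2 per direction, of which 1 is not reported here. Other called members are given by their log2 change. Levels of Cldn1, Cldn12, Cdh13 and Pcdhb5, values of a named member in comparisons that did not name it, and library omissions of other called members were added after the values were seen. The endothelial markers Cd93 and Egfl7 were also named only then. The fit was tested on simulated data. Alternatives were a pseudocount of 1, a filter at a mean of 1 RPKM, median-of-ratios scaling, no trend or robustness, only the groups compared, a replicate block, leaving out each library, and, chosen after seeing the data, all 36 libraries in 1 fit. Replicate numbers only name mice: deviations of same-numbered libraries correlated at -0.259 to 0.302 over 27 pairs. Each library is 1 mouse.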

Additional observations from a re-analysis of the deposited data

Results flagged for a closer look

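In 10 of 170 tests of a named member within a group of 4 to 10 libraries, 1 library stood apart from the others by Dixon's criterion. Chance flags about 1 in 20 such groups. In O(-Ex), replicate 7 had 8.976 RPKM of Pcdhgc3, where the others reached at most 5.98 RPKM, and 2.377 RPKM of Pcdhga7, where the others reached at most 1.55 RPKM, so the same old mouse was high for both γ protocadherins. Replicate 5 of O(-Ex) had 2.083 RPKM of the integrin subunit Itga9, where the others reached at most 1.17 RPKM. Replicate 1 of O(+Ex) had 5.413 RPKM of Itgb4, where the others reached at most 2.88 RPKM. In Y(-Ex), replicate 3 had 2.114 RPKM of N-cadherin, Cdh2, above the 1.45 RPKM of the next library, and replicate 4 had 72.12 RPKM of Ctnna1, below the 87.6 RPKM of the next.

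In Y(HET), replicate 1 had 5.888 RPKM of p120-catenin, Ctnnd1, where the others reached at most 5.29 RPKM. Replicate 2 of Y(HET) had 16.25 RPKM of Pcdh18, where the others reached at most 13.2 RPKM, and still lay below every Y(WT) library. Replicate 3 of Y(HET) had 1.245 RPKM of Pcdhb5, where the others reached at most 0.768 RPKM. Replicate 1 of Y(KO) had 2.28 RPKM of Pcdhb17, below the 2.69 RPKM of the next library. No member's wheel effect differed between old and young mice by limma's adjusted p.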

How the results depend on the processing

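Of the results recomputed for the 34 members named by the rule, 2644 kept their side of the threshold, 171 lost it and 13 gained it. None that was called in the main fit or in the alternative turned its direction. Turns of direction in results called in neither fit were not counted. With only the 2 groups in the fit, 3 members in place of 5 were called in Y(KO) against Y(WT) and 6 in place of 13 in Y(HET) against Y(WT). Without trend and robustness the Y(KO) count was 9. With all 36 libraries in 1 fit it was 5 for Y(HET), and 1 member, Pcdh19, was called lower with the free wheel in young mice, where none was called otherwise. In that fit Itgav was not called with the wheel in old mice. A replicate block, in a design where the numbers pair no mice, left 0 members called in Y(KO) and 3 in Y(HET), namely Pcdh18, Cdh1 and Cldn5. Leaving out each library in turn gave 23 to 28 members with age in the wheel cohort, 9 to 13 with age in the Ccnd1 cohort, 3 to 6 with the wheel in old mice and 0 in young mice. The same omissions gave 1 to 9 members in Y(KO) and 1 to 13 in Y(HET) against Y(WT), and 1 to 4 in Y(KO) against Y(HET). The causes were not tested. A filter at a mean of 1 RPKM took Cdh1, Pcdhgb1 and Pcdhb8 out of the test in both cohorts and Pcdhb10 in the wheel cohort, which ended the calls they had there. With 3 to 7 mice a group and no read counts, changes of members near or under 1 RPKM rest on few reads of unknown number, and clustered protocadherins share sequence.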
